A study of Zea mays with 6 samples.

Results

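The comparison of UCZ with control covered 4 of the 6 arrays of the study, 2 UCZ arrays and 2 control arrays, chosen by their labelled treatment and paired by their labelled biological replicate number. RNA came from the mesocotyl, the part of a grass seedling's stem between the seed and the coleoptile, which pushes the shoot up through the soil. All plants were of the maize inbred line 3681-4, sown 20 cm deep in darkness and sampled 10 days after sowing. UCZ, an inhibitor of gibberellin synthesis by the wording of the series, was the only labelled difference between the groups, and for its dose, solvent and time of application the sources used here give nothing. The other 2 arrays, from mesocotyls given the gibberellin GA3, entered the fit only as a further estimate of spread. Arrays of a group are biological replicates by their labels, which do not say how many plants each held, so p-values measure the spread between these arrays.

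Gibberellins are plant hormones made from a plastid diterpene by synthases in the plastid and oxidases outside it. They promote stem elongation, in which cells loosen and extend their walls, take up water and lay down new wall along arrays of microtubules, and inhibitors of their synthesis give short plants. In a deeply sown seedling the mesocotyl has to elongate in the dark before the leaves reach light.

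The study made 1 kind of measurement, the signal intensity of 17555 maize probe sets on each array. Changes are given as UCZ minus control on the scale log2(signal + 16), first within each experiment, that is within a pair of arrays with the same replicate number, and then as the mean of both experiments with its standard error (SE). The brightest 60% of probe sets were tested, 10533 in all, and a probe set is said to rise or fall, or to be called, where its limma adjusted p was under 0.05. The 60% were chosen by the mean of log2(signal + 16) over all 6 arrays. Of the calls, 40 of the rises and 81 of the falls came from probe sets whose other 4 arrays averaged, on that scale, below the filter level, a signal of 110.0. Such probe sets were tested only because 1 group was high, so for those described here the adjusted p is that of the fit without the filter, over 17555 probe sets, and their changes, set against dim signals, depend on the 16 added. A percentile gives the place of a change among these 10533, from the largest fall at 0 to the largest rise at 100. Of the 1108 genes that the annotation names, 715 characterized ones, with a name other than a number, were measured, each by its brightest probe set, so most of the response is unnamed here. Of these 715 genes 16.9% rose and 22.8% fell, and the counts in each gene list below stand beside these shares. In whole tissue, fewer cells of a type and less RNA per cell cannot be told apart.

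The overall scale of the UCZ arrays was uncertain, and for this reason ranks are given beside the changes. The deposited signals had been brought to a common mean, with a 2% trimmed mean of about 500.1 to 500.2 on all 6 arrays. The median signal was 190.6 and 185.4 on the UCZ arrays, against 201.0 and 204.9 on the control arrays. Bacterial poly-A controls are spiked into an RNA sample ahead of labelling, and their 36 probe sets gave higher signals on the UCZ arrays in both experiments, by a mean log2 difference of 0.62 and 0.69 (SD over probe sets 0.195 and 0.190). The 27 probe sets for hybridization controls, added after labelling, differed by 0.16 and 0.22. Scaling the arrays to the poly-A controls turned the median change of all probe sets to −0.65, against −0.03 in the deposited values, 0.08 after median centring and 0.02 after quantile normalization. The percentile of each of the 30 leading genes named below, all at the ends of the order, shifted by at most 1.43 points with these choices, while over all named genes the shift was up to 17.2 points, with a median of 0.788. The actin 3′/5′ ratio, which rises as RNA degrades, was 4.14 and 3.11 on the UCZ arrays, against 3.57 and 2.76 on the control arrays, while that of GAPDH was 1.79 and 1.56, against 2.19 and 1.95. The part of RNA quality in the changes was not tested.

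Both experiments gave much the same response. The change had the same sign in both for 8197 of 10533 probe sets (77.8%). In the deposited scaling 3659 probe sets were called, 34.7% of those tested, with 1641 higher in UCZ (15.6%) and 2018 lower (19.2%). The split between rises and falls depended on the scaling, with 2348 higher and 1446 lower after median centring and 1837 and 1689 after quantile normalization. Poly-A control scaling gave 76 higher and 7638 lower. Under all 4 scalings 76 probe sets rose (0.722%) and 1427 fell (13.5%). The count in the deposited scaling was 1620 without the pairing by experiment, 2081 without UCZ replicate 2, and 2466 without UCZ replicate 1, where 991 rose, against 870 without UCZ replicate 2. Changes of at least 2-fold in both experiments were seen for 67 probe sets upwards (0.636%) and 241 downwards (2.29%), and no probe set changed at least 2-fold in opposite directions. At 4-fold the counts were 5 and 33, so the far end of the ranking held more falls than rises.

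**Figure D1:**
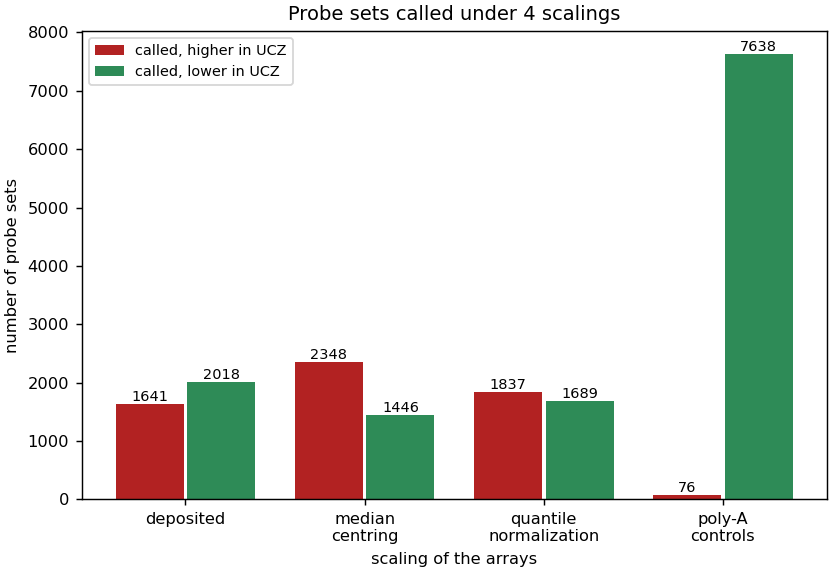
Number of probe sets (y axis) called higher (red) or lower (green) in UCZ than in control among 10533 under 4 scalings of the arrays (x axis). The split of rises and falls is 1641 and 2018 as deposited and 76 and 7638 with poly-A control scaling.

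The ranks repeated from one experiment to the other. Of the 100 probe sets raised most in experiment 1, where their median log2 change was 1.24, 97 were also higher in UCZ in experiment 2, with a median of 1.16 at a median percentile of 99.3. Of the 100 lowered most in experiment 1, all 100 were lower in experiment 2, with a median of −1.87 at percentile 0.484. The lists of 100 made in each experiment shared 56 probe sets upwards and 73 downwards. Across all 10533 probe sets the changes of the experiments correlated at r = 0.822 and Spearman's rho = 0.753, as a description, since all probe sets of a pair share the same arrays. The plot of the changes in both experiments shows this agreement as a cloud along the diagonal.

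**Figure D2:**
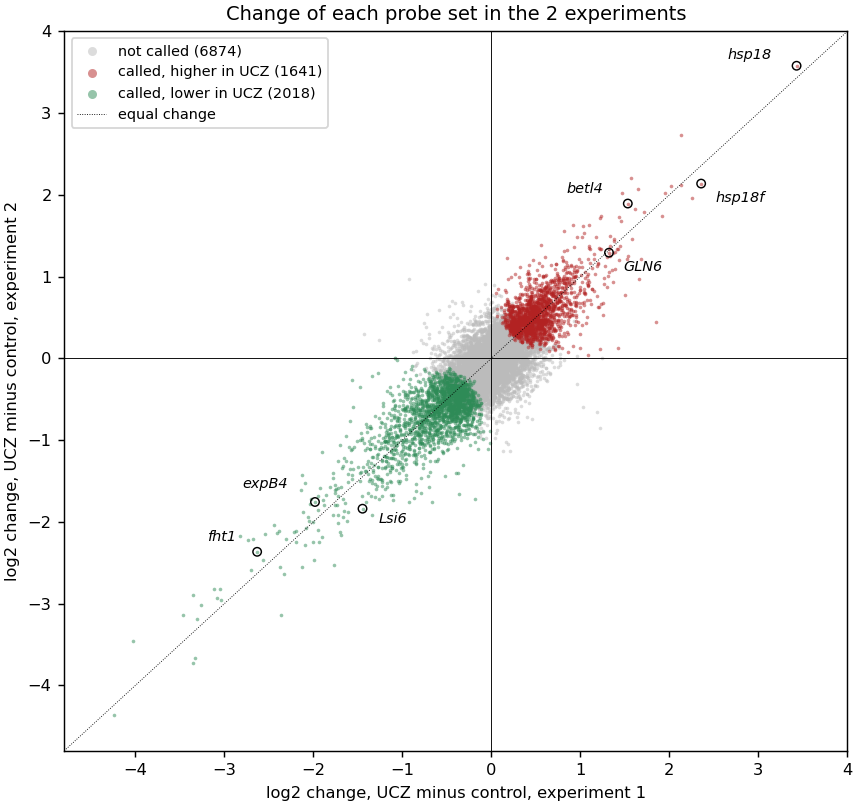
Log2 change, UCZ minus control, of each of 10533 probe sets in experiment 1 (x axis) and experiment 2 (y axis), with 1641 probe sets called higher in red, 2018 called lower in green and the rest in grey. The points lie along the dotted line of equal change, and the largest fall of those tested, −4.30, reaches farther from 0 than the largest rise, 3.50 for hsp18.

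Heat shock genes held the top of the ranking of named genes. Heat shock proteins are chaperones that keep other proteins from aggregating, and the small ones are nearly silent in unstressed tissue. The small heat shock gene hsp18 had signals of 1318 and 1003 on the UCZ arrays, against 108 and 69.3 on the control arrays, the largest rise of the probe sets tested (log2 3.50, SE 0.16, adjusted p = 9.6e-06 without the filter). A second small heat shock gene, hsp18f, had 483 and 361 on the UCZ arrays, against 81.4 and 69.8 on the control arrays (log2 2.25, SE 0.19, adjusted p = 0.00015 without the filter). In both genes each UCZ array was far above each control array, and the control signals lay below the filter level of 110.0. The change of hsp18 was 3.72 with 1 added in place of 16, and 3.0 with 64. The gene hsp22 had 233 and 207 on the UCZ arrays, against 70.2 and 77.6 on the control arrays (log2 1.39, adjusted p = 0.00079 without the filter). For hsp101, a chaperone of the type that dissolves protein aggregates, the signals were 608 and 586 on the UCZ arrays, against 255 and 254 on the control arrays (log2 1.18, adjusted p = 0.00012). The gene hsp18a had 458 and 359 on the UCZ arrays, against 215 and 199 on the control arrays, a smaller rise (log2 0.92, adjusted p = 0.00014) whose call was lost under poly-A control scaling.

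Of the 9 heat shock and chaperone genes measured, these 5 rose and none fell, but hsp18, hsp18f and hsp22 reached the filter only through the UCZ arrays, so this count is no measure of the list. Without the filter the same number rose among all 10 on the array and none fell, with a median log2 change of 0.78 at percentile 97.5, where all probe sets had a median of −0.03, 8.04% were higher and 11.0% lower. The 1 below the filter, hsp18c, had 85.7 and 62.7 on the UCZ arrays, against 51.5 and 33.0 on the control arrays, and was not called (log2 0.64, adjusted p = 0.069). The other 4 were not called and had smaller values. They were the chaperonins CPN60I (−0.06) and CPN60II (0.12), the heat shock factor hsfb (−0.35) and emp2 (−0.16), which encodes a protein that binds heat shock factors. With poly-A control scaling 4 of the 9 rose and 4 fell, hsfb among those that fell. Ribosomal protein genes also lay above the middle, though by far less: 7 of 14 rose and 1 fell, with a median of 0.24 at percentile 76.9. Without the filter 4 of the 14 rose and 1 fell. The largest of these rises was that of RPL19, with 3518 and 3674 on the UCZ arrays, against 2160.3 and 2128 on the control arrays (log2 0.74, adjusted p = 0.00011). The 1 that fell was rps21b (log2 −0.36, adjusted p = 0.026, call lost without UCZ replicate 1, UCZ replicate 2 or control replicate 1, adjusted p up to 0.21). No ribosomal protein gene rose under poly-A control scaling, where 7 fell, and of 6 translation factors none was called in the deposited scaling, with a median of 0.18 and values from −0.26 for EF1A to 0.28 for eIF4E1. The share of rises grew with signal: among the dimmest 2107 probe sets 204 rose and 392 fell, and among the brightest 2107 of them 538 rose and 303 fell.

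Lists of cell wall genes lay toward the other end by their medians. Expansins are proteins that loosen the wall of extending cells, and 5 of the 9 measured fell while 1 rose, with a median of −0.55 at percentile 10.3. The expansin expB4 had 1193 and 1141 on the UCZ arrays, against 4762 and 3898 on the control arrays (fall of 3.66-fold, log2 −1.87, SE 0.10, adjusted p = 2.7e-08). The signals of expB8 were 1086 and 1399 on the UCZ arrays, against 2293 and 2485 on the control arrays (log2 −0.94, adjusted p = 1.5e-05). These groups did not overlap, nor did they for 61.1% of all probe sets. Smaller falls were those of expA4 (−0.77), expA3 (−0.57) and expB6 (−0.55), with adjusted p between 0.002 and 0.01. The exception was expB7, with 1411 and 1074 on the UCZ arrays, against 721 and 508 on the control arrays (rise of 2.01-fold, log2 1.01, SE 0.12, adjusted p = 3.6e-05), a call that was lost under poly-A control scaling, where its change was 0.36. The 3 members not called, expa1, EXPA5 and expB3, had changes from −0.28 to 0.14. Under poly-A control scaling 8 of the 9 fell and none rose.

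Cellulose synthases make the load-bearing fibres of the wall, and in maize different members serve the thin primary wall and the thickened secondary wall. Of the 10 genes of this group 6 fell and 1 rose, with a median of −0.30 at percentile 23.7. Its 4 large falls were the secondary-wall synthases and bk2, the brittle stalk gene of secondary walls. The synthase gene cesa10 had 367 and 299.6 on the UCZ arrays, against 962 and 1001 on the control arrays (log2 −1.52, SE 0.13, adjusted p = 1.9e-06). The gene cesa11 had 724 and 651 on the UCZ arrays, against 1717 and 1852 on the control arrays (log2 −1.36), and CesA12 had 594 and 554, against 1315 and 1611 (log2 −1.32). For bk2 the signals were 294 and 342 on the UCZ arrays, against 748 and 737 on the control arrays (log2 −1.19, adjusted p = 9.1e-06). In each of the 4 genes the control signals were more than 2 times the UCZ signals in both experiments. The synthases cesa8 and cesa7 fell by 0.34 and 0.26, cesa6, cesa2 and cesa5 had changes between −0.23 and 0.10 and were not called, and cesa3 rose slightly (0.42, adjusted p = 0.04, call lost without UCZ replicate 1 or control replicate 1, adjusted p up to 0.53). Its change was 0.72 and 0.11 in experiments 1 and 2, and −0.22 under poly-A control scaling.

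Enzymes that feed lignin, the polymer that stiffens secondary walls, also fell, 3 of the 4 measured, with a median of −0.61 at percentile 10.7. The cinnamoyl-CoA reductase gene ccr2 had 137 and 95.1 on the UCZ arrays, against 384 and 249 on the control arrays (log2 −1.32, SE 0.14, adjusted p = 1.4e-05). The coumarate ligase gene 4CL fell by 0.82 and BM1, a cinnamyl alcohol dehydrogenase known from the brown midrib mutant, fell by 0.41, while the ammonia lyase pal3 at the entry of the pathway had a change of −0.05 and was not called. In the related flavonoid branch, fht1, also known as f3h and encoding flavanone 3-hydroxylase, had 84.5 and 90.0 on the UCZ arrays, against 607 and 531 on the control arrays. This was the largest fall among the characterized genes tested, each read by its brightest probe set (5.66-fold, log2 −2.50, SE 0.14, adjusted p = 3.7e-08). The later anthocyanin gene a2 fell far less (−0.39, adjusted p = 0.011). Among other wall genes, HRGP, a hydroxyproline-rich structural protein, fell by 0.65 and xet1, a xyloglucan endotransglycosylase, by 0.49.

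Microtubules guide the deposition of cellulose, and 6 of the 10 tubulin genes fell while none rose, with a median of −0.56 at percentile 9.95. Among all characterized genes 22.8% fell and 16.9% rose. The beta-tubulin TUBB2 had 509 and 464 on the UCZ arrays, against 1265 and 1098 on the control arrays (log2 −1.25, SE 0.12, adjusted p = 4.8e-06). The signals of tub5 were 2052 and 2628 on the UCZ arrays, against 3787 and 4225 on the control arrays (log2 −0.78), and those of the alpha-tubulin tua6 were 2723 and 2469.5, against 4322 and 4297 (log2 −0.73). The other falls were tub3 (−0.66), tua5 (−0.58) and tub7 (−0.55), and tub4, tub6, tua4 and TUA1 had changes from −0.27 to −0.10 without a call. For tub6 and tua4 the probe sets of the gene did not all go the same way. Members of such families share sequence, and how far one member's probe sets also read another was not tested. Of 7 kinesins, motor proteins that move along microtubules, 3 fell and none rose, with a median of −0.43 at percentile 15.4. Among them krp6 had 377 and 368 on the UCZ arrays, against 905 and 899.7 on the control arrays (log2 −1.24, adjusted p = 3.6e-06), and KIN9 and kin11 fell by 0.77 and 0.65, while krp1 had −0.14 and was not called.

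**Figure D3:**
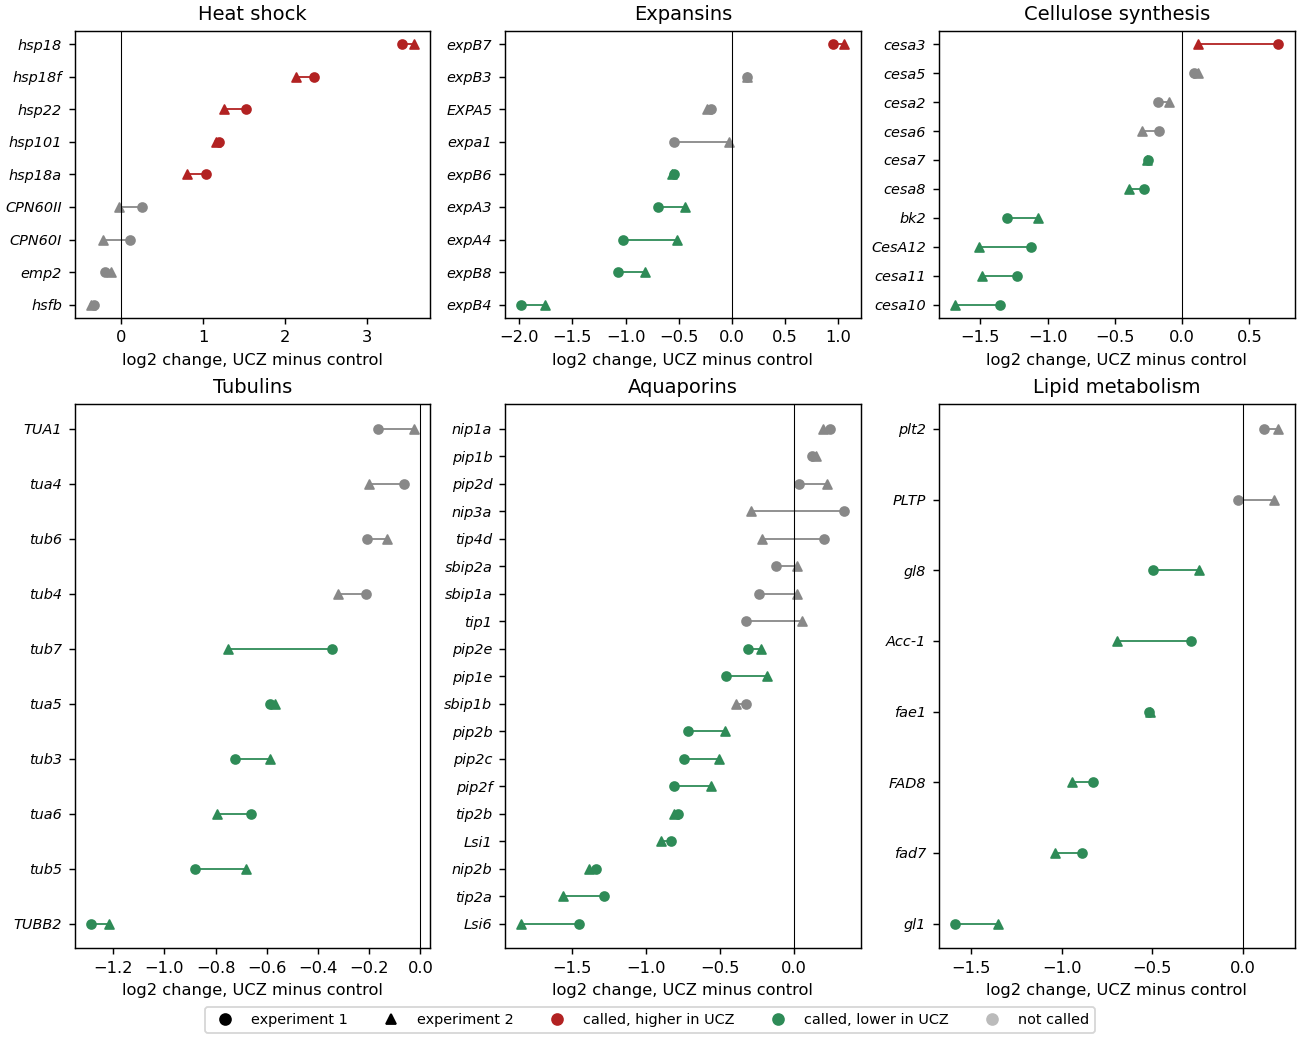
Log2 change, UCZ minus control (x axis), of every measured gene of 6 groups in experiment 1 (circles) and experiment 2 (triangles), coloured red where called higher in UCZ, green where called lower and grey where not called. The heat shock panel runs to the right up to hsp18, while the called genes of the other panels lie left of 0 with the exceptions of expB7 and cesa3.

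Aquaporins let water and small solutes cross membranes, and 10 of the 19 measured fell while none rose, with a median of −0.32 at percentile 21.9. Among all characterized genes 22.8% fell and 16.9% rose. The vacuolar membrane aquaporin tip2a had 3168 and 2362 on the UCZ arrays, against 7719 and 6995 on the control arrays (log2 −1.42, SE 0.13, adjusted p = 2.3e-06). The silicon transporter gene Lsi6 had 303 and 171 on the UCZ arrays, against 855 and 655 on the control arrays (log2 −1.64, adjusted p = 8.8e-07), and nip2b had 1054 and 860.2, against 2683 and 2273 (log2 −1.36, adjusted p = 3.9e-07). The silicon transporter Lsi1 and the vacuolar aquaporin tip2b fell as well (−0.87 and −0.80). Among the plasma membrane aquaporins, pip2f, pip2c, pip2b, pip1e and pip2e fell by log2 values between 0.27 and 0.68, while the bright pip1b, with 7458 and 7857 on the UCZ arrays, against 6857 and 7078 on the control arrays, was not called (log2 0.14). The 9 uncalled members had changes between −0.36 and 0.22. Of the proton pumps, which build the gradients that drive transport, the vacuolar pyrophosphatase vpp1 had 1997 and 1702 on the UCZ arrays, against 3721 and 3513 on the control arrays (log2 −0.97, adjusted p = 1.2e-05), and vpp3, mha4 and mha1 were not called.

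Genes that make fatty acids, waxes and membrane lipids fell in 6 of 8 cases, with none higher and a median of −0.50 at percentile 12.2. The wax gene gl1, known from the glossy leaf mutant, had 166 and 238 on the UCZ arrays, against 531 and 633 on the control arrays (log2 −1.47, SE 0.13, adjusted p = 1.7e-06). The fatty acid desaturases fad7 and FAD8 fell by 0.96 and 0.89, with signals of 523 and 555 for fad7 on the UCZ arrays, against 980.1 and 1153 on the control arrays. The elongase genes fae1 (−0.52) and gl8 (−0.37) and the acetyl-CoA carboxylase Acc-1 (−0.49) fell less, and the lipid transfer protein genes PLTP and plt2, both bright, were not called. Farnesyl diphosphate synthase, fps1, an early isoprenoid enzyme, fell by 0.55 (adjusted p = 0.0026), and the carotenoid genes dxs1, vp9 and pds1 were not called.

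Several defence genes fell sharply. Without the filter 4 of the 9 on the array fell and 1 rose, with a median of −0.27 at percentile 24.3, and the same counts held among the 8 measured. In the fit without the filter 11.0% of all probe sets were lower and 8.04% higher. The gene prp4, which carries the synonym PR-1, had 63.6 and 53.3 on the UCZ arrays, against 400.4 and 283 on the control arrays (log2 −2.25, SE 0.16, adjusted p = 7.5e-05 without the filter), and it reached the filter only through the control arrays. The thaumatin-like gene pr5 had 594 and 556 on the UCZ arrays, against 2050.0 and 1731 on the control arrays (log2 −1.69, adjusted p = 7.3e-07). For wip1, a wound-induced protease inhibitor, the signals were 1493 and 1393 on the UCZ arrays, against 4456 and 3897 on the control arrays (log2 −1.52, adjusted p = 9.3e-08). In all 3 genes the UCZ arrays lay well below the control arrays. The chitinase chn1 fell by 0.84, and the cystatin gene cc7, an inhibitor of cysteine proteases, rose (0.49, adjusted p = 0.0031, call lost without UCZ replicate 2 or control replicate 2, adjusted p up to 0.071). The genes piip1, cpi2 and psei1 were not called. By contrast both measured genes of benzoxazinoid synthesis, the indole-derived defence compounds of grasses, rose: bx1 had 3339.9 and 3636 on the UCZ arrays, against 2010.1 and 2045 on the control arrays (log2 0.78, adjusted p = 5.1e-05), and bx6 had 6834 and 6978, against 4858 and 4827 (log2 0.51). Neither was called as a rise under poly-A control scaling.

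Glutathione S-transferases attach glutathione to toxic compounds, and the family was split: of 25 measured, 11 fell and 4 rose, with a median of −0.20 at percentile 31.9. Among all characterized genes 22.8% fell and 16.9% rose. The gene saf1, named for safeners and listed also as In2-1, had 52.0 and 87.2 on the UCZ arrays, against 284 and 299 on the control arrays (log2 −1.88, SE 0.16, adjusted p = 1.8e-06). The gene gst2 had 649 and 489 on the UCZ arrays, against 1415 and 997 on the control arrays (log2 −1.05). On the rising side, gst19 had 2451 and 2083 on the UCZ arrays, against 1464 and 1019 on the control arrays (log2 0.88, adjusted p = 4.0e-05) and gst10 had 2641 and 2998, against 1739 and 1645 (log2 0.73). The brightest member, gst1, was not called, with 10227 and 9745 on the UCZ arrays, against 9519 and 8990.4 on the control arrays. Under poly-A control scaling 19 fell and none rose. Of 10 peroxidases and antioxidant enzymes, pox1 fell (−0.53, call lost without UCZ replicate 1, UCZ replicate 2 or control replicate 2, adjusted p up to 0.18) and the superoxide dismutase sod3 rose (0.52), with 8 uncalled.

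Nitrogen assimilation showed large changes both ways, with 4 of 8 genes lower and 2 higher. Glutamine synthetases fix ammonium, and GLN6 had 1462 and 993 on the UCZ arrays, against 576 and 396 on the control arrays (log2 1.31, SE 0.11, adjusted p = 1.7e-06). The glutamine synthetase gln1 had 3182 and 2728 on the UCZ arrays, against 1533 and 1567 on the control arrays (log2 0.92, adjusted p = 2.5e-05). The asparagine synthetase gene asn1, which stores nitrogen as asparagine, had 1439.9 and 1295 on the UCZ arrays, against 3133 and 3293 on the control arrays (log2 −1.22, adjusted p = 1.1e-06). Glutamate dehydrogenase, gdh1, also fell (−1.18), as did gln2 (−0.62) and the nitrite reductase NIR (−0.51), so 2 glutamine synthetases rose while another fell. Of these rises GLN6 alone was called under poly-A control scaling.

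Sucrose and starch genes were also split, with 6 of 12 lower and 3 higher. Sucrose phosphate synthase, sps1, had 135 and 101 on the UCZ arrays, against 357 and 362 on the control arrays (2.83-fold lower, SE of the log2 change 0.15, adjusted p = 8.6e-06). The vacuolar invertase ivr2, which cleaves sucrose inside the cell, had 1478 and 1085 on the UCZ arrays, against 3480.1 and 2769 on the control arrays (log2 −1.28, adjusted p = 1.4e-05). The cell wall invertase incw1, which cleaves sucrose outside the cell, had 340.0 and 278 on the UCZ arrays, against 157 and 151 on the control arrays (log2 0.93, adjusted p = 0.00027). One invertase therefore fell and the other rose, although the call of incw1 was lost under poly-A control scaling. The sucrose transporter sut1 fell by 0.93, and the sucrose synthases sh1 and sus1 fell by 0.31 and 0.24. Subunits of ADP-glucose pyrophosphorylase, the first enzyme of starch synthesis, were higher: AGP2 had 676 and 519 on the UCZ arrays, against 229 and 296 on the control arrays (log2 1.14, adjusted p = 0.00011), and Agpsemzm rose by 0.65. Under poly-A control scaling AGP2 kept its call, while that of Agpsemzm was lost, with a change of 0.009.

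In glycolysis and fermentation 4 of 11 genes rose and 2 fell, against 16.9% and 22.8% of characterized genes. Fermentation enzymes regenerate the cofactor of glycolysis when oxygen is short, and pyruvate decarboxylase pdc3 had 1346 and 1382 on the UCZ arrays, against 754 and 781 on the control arrays (log2 0.82, adjusted p = 5.7e-05). The alcohol dehydrogenases adh1 and adh2 rose by 0.59 and 0.57, and the bright glyceraldehyde phosphate dehydrogenase GPC1 by 0.27. Its relative gpc4 had 394 and 353 on the UCZ arrays, against 883 and 844 on the control arrays (log2 −1.18, adjusted p = 6.7e-06), and gpc3 fell by 0.72. None of these 4 rises was called under poly-A control scaling.

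**Figure D4:**
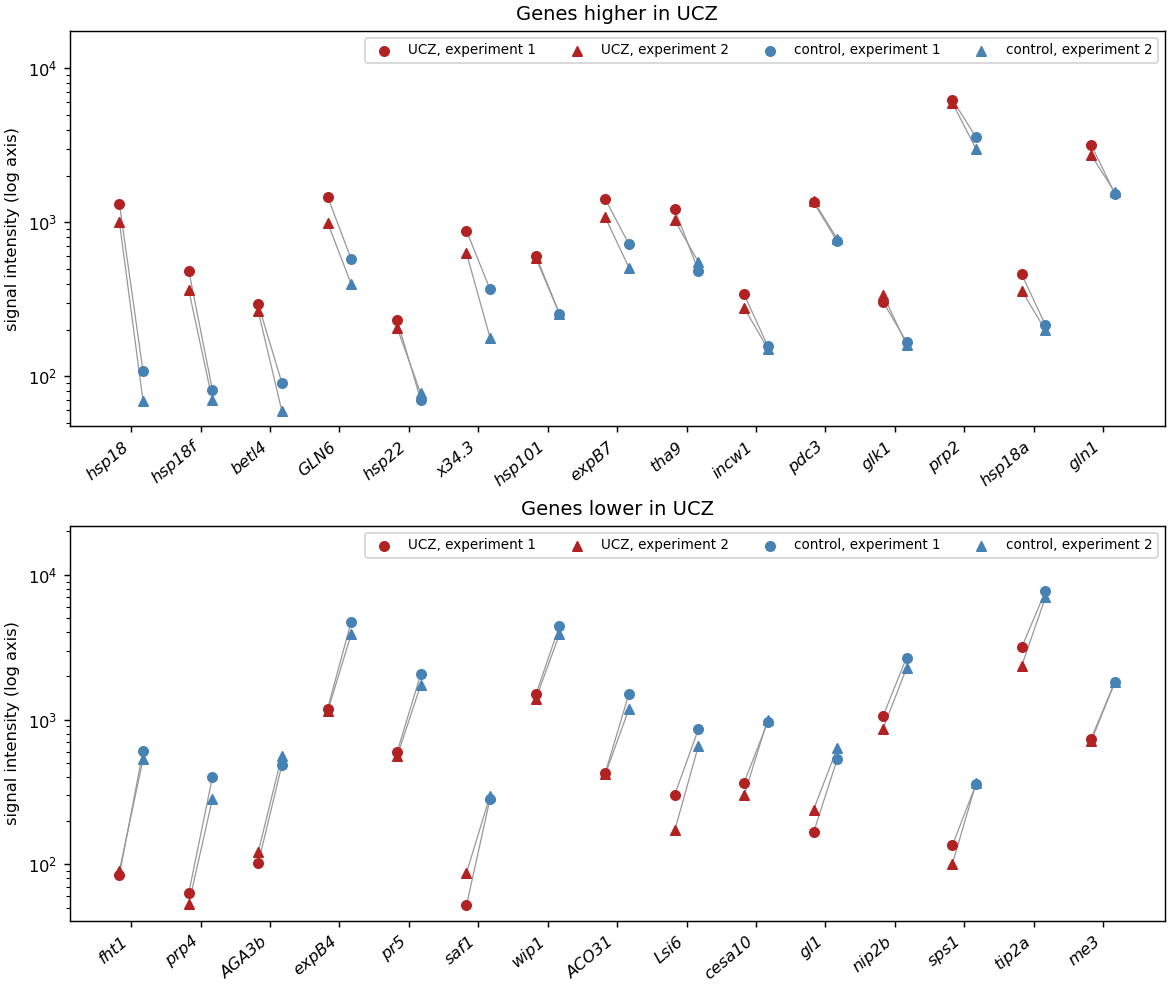
Signal intensity (log axis) of the 15 characterized genes with the most repeatable rises (top) and falls (bottom), ordered from left to right by the smaller of their changes in the 2 experiments. UCZ arrays (red) stand left of control arrays (blue), circles are experiment 1 and triangles experiment 2, and lines join arrays of the same experiment. The groups do not overlap in these 30 genes, which were chosen for large changes in both experiments, nor in 61.1% of all 10533 probe sets.

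The genes in the plot of signals by array complete this picture. Behind hsp18 and hsp18f the most repeatable rise was that of betl4, with 293 and 265 on the UCZ arrays, against 90.9 and 59.6 on the control arrays (log2 1.71, SE 0.19, adjusted p = 0.00061 without the filter). It reached the filter only through the UCZ arrays, and its name comes from the basal endosperm transfer layer of the kernel. The transcription factor gene glk1, of a family that acts in chloroplast development, had 305 and 339 on the UCZ arrays, against 167 and 161 on the control arrays (log2 0.91). The genes x34.3, tha9 and prp2, to which no role is given here, rose by 1.48, 1.09 and 0.90. On the falling side AGA3b, also without a role here, had 101.6 and 122 on the UCZ arrays, against 484 and 562 on the control arrays (log2 −2.08, adjusted p = 1.1e-07). Of the 30 genes, 5 reached the filter only through their high group: hsp18, hsp18f, hsp22, betl4 and prp4. In the 4 fits that left out 1 UCZ or control array, the change ran from 3.33 to 3.68 for hsp18, from 0.69 to 1.48 for tha9 and from −2.66 to −2.34 for fht1. The 30 genes were chosen from these same arrays for changes in both experiments, so such fits are no separate support for them. Of the 15 rises, expB7, incw1, pdc3, glk1, prp2, hsp18a and gln1 lost their call under poly-A control scaling, and none of the 15 falls did.

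Genes of gibberellin synthesis were few on the array. The gene an1 encodes the synthase that makes the first committed precursor, copalyl diphosphate, and had 360.3 and 378 on the UCZ arrays, against 459.8 and 513 on the control arrays. This fall was small (log2 −0.38, SE 0.12, adjusted p = 0.026) and not stable: the call was lost in each fit that left out 1 array, with adjusted p from 0.055 to 0.21, and after median centring and quantile normalization. The other 3 genes lay below the signal filter. The related synthase CPPS2 had 86.8 and 75.7 on the UCZ arrays, against 332.4 and 295.8 on the control arrays, and in the fit without the filter its change was −1.76 (adjusted p over 17555 probe sets = 0.00041). The oxidase gene dwarf3 had 72.0 and 82.3 on the UCZ arrays, against 75.2 and 97.5 on the control arrays (log2 −0.13, adjusted p = 0.67 in that fit). The ent-kaurene synthase eks1 was dim throughout, with 7.09 and 17.6 on the UCZ arrays, against 18.4 and 19.2 on the control arrays.

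Among genes of other hormones, those of ethylene synthesis moved most. ACC oxidases carry out the last step of ethylene synthesis, and ACO31 had 429 and 419 on the UCZ arrays, against 1508 and 1184 on the control arrays (log2 −1.62, SE 0.13, adjusted p = 1.2e-06). Its relative ACO20 had 611 and 390.2 on the UCZ arrays, against 787 and 754 on the control arrays (log2 −0.64, adjusted p = 0.013), while the ethylene receptor etr2 rose slightly (0.37, adjusted p = 0.036, call lost without UCZ replicate 1, UCZ replicate 2 or control replicate 1, adjusted p up to 0.23). The auxin-binding protein gene abp1 rose by 0.44 (call lost without UCZ replicate 2, adjusted p up to 0.13), and abp4 and aic1 were not called. Of 6 genes of abscisic acid and dehydrins, which protect cells that lose water, the aldehyde oxidase AO1 (0.67, call lost without UCZ replicate 1, adjusted p up to 0.11) and the dehydrin dhn1 (0.37) rose and none fell, with dhn2 at −0.27 and uncalled. Of 9 cytokinin genes 1 fell, the response regulator RR8 (−0.45, call lost without UCZ replicate 1, UCZ replicate 2 or control replicate 1, adjusted p up to 0.11), and 8 were not called, among them ciszog1, an enzyme that stores cytokinin as a glucoside (0.20). The lipoxygenase lox1 had 2625 and 2665 on the UCZ arrays, against 4431 and 3333 on the control arrays (log2 −0.54, call lost without control replicate 1, adjusted p up to 0.18), lox3 had 704 and 711, against 474 and 455 (log2 0.59), and the other 4 genes of jasmonate synthesis were not called.

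The cell cycle list moved little, with 2 of 13 genes lower, 1 higher and a median of −0.17 at percentile 34.6. The DNA replication clamp pcna1 had 504 and 511 on the UCZ arrays, against 987 and 910.5 on the control arrays (log2 −0.88, adjusted p = 6.1e-05), whereas pcna2 had 965 and 997, against 986 and 1094, and was not called. The cyclin cyc3 fell (−0.52), the D-type cyclin cycD2 was slightly higher (0.35, adjusted p = 0.037, call lost without UCZ replicate 2, control replicate 1 or control replicate 2, adjusted p up to 0.46), and histone, MCM and CDC genes were not called. Of 18 transcription factors 4 fell and 1 rose, ids1 (0.37, call lost without UCZ replicate 1, UCZ replicate 2 or control replicate 1, adjusted p up to 0.3). The falls in this list were near the share among all characterized genes, of which 22.8% fell and 16.9% rose. The meristem homeobox gene kn1 had 153 and 166 on the UCZ arrays, against 283 and 246 on the control arrays (log2 −0.68, adjusted p = 0.0032), and its relative lg3 had 95.2 and 88.5, against 169 and 152 (log2 −0.71, adjusted p = 0.041 without the filter, which it reached only through the control arrays). The epidermal homeobox gene ocl3 had 295 and 438 on the UCZ arrays, against 525 and 761 on the control arrays (log2 −0.79), while ocl1, ocl4 and ocl5 of the same family were not called. Among 24 kinases and signalling proteins 8 fell and 5 rose, against 22.8% and 16.9% of characterized genes, with a median of −0.07 at percentile 45.2. The kinase gene MPK4 fell by 0.55 (call lost without control replicate 2, adjusted p up to 0.08). Small ROP GTPases, which steer polar cell growth, went both ways: rop7 (0.68), rop3 (0.72, adjusted p = 0.038 without the filter, which it reached only through the UCZ arrays) and rop1 (0.51) rose, and rop9 (−0.38) and rop2 (−0.30) fell. The calls of rop9 and rop2 were lost in the fit without the filter (limma adjusted p = 0.073 and 0.083).

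**Figure D5:**
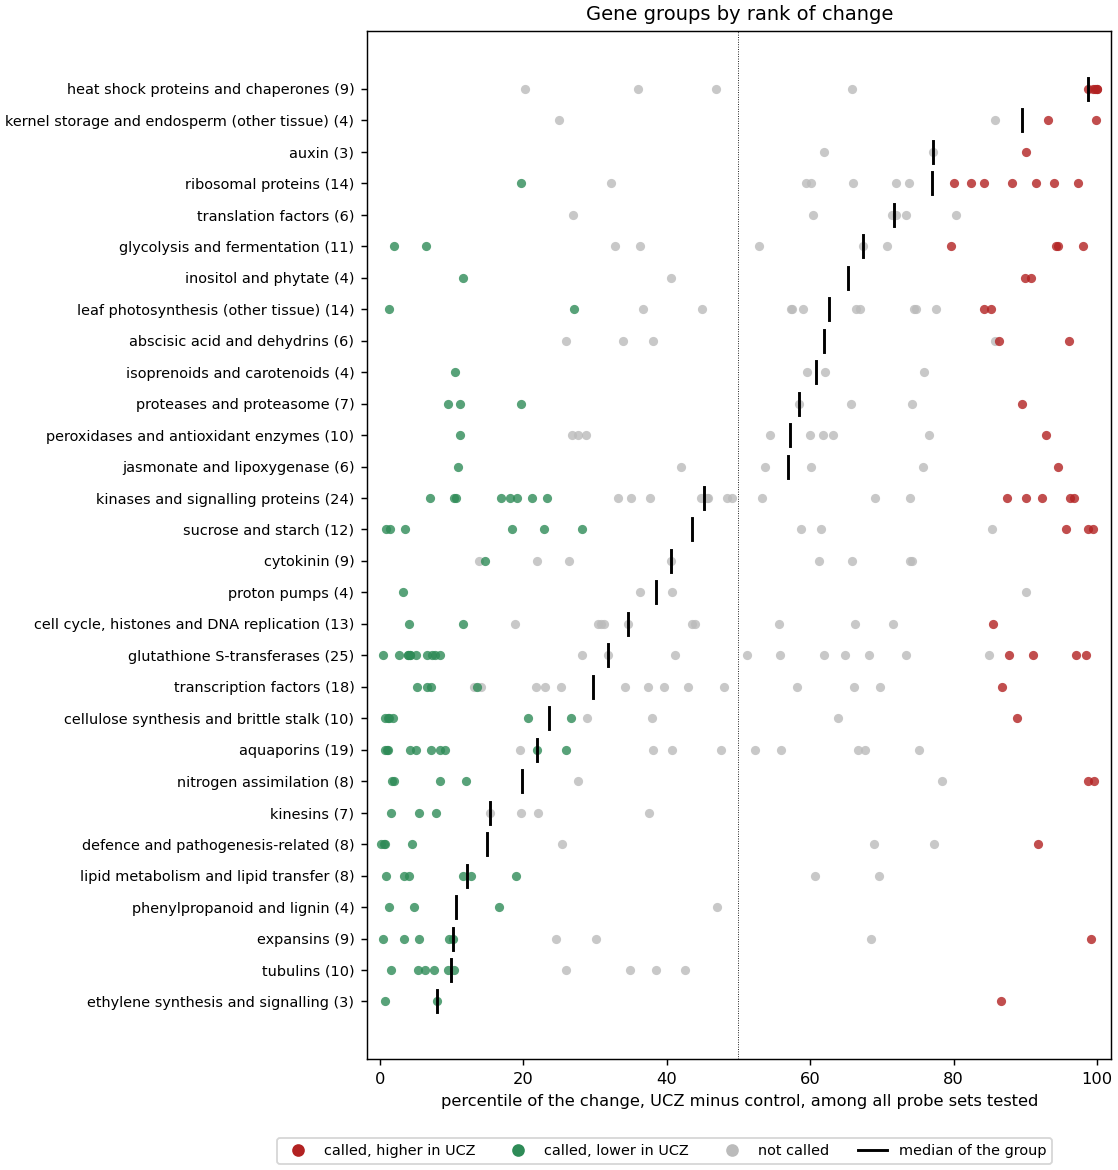
Percentile of the change, UCZ minus control, among 10533 probe sets (x axis) for each measured gene of 30 gene groups (rows, number of genes in brackets), red where called higher in UCZ, green where called lower, grey where not called, with black bars at group medians. Heat shock proteins lie at the top with a median at 98.7, including 3 genes that reached the filter only through the UCZ arrays, while expansins and tubulins lie near the bottom with medians at 10.3 and 9.95.

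The plot of gene groups by rank sets these lists side by side, against 121 of 715 characterized genes higher (16.9%) and 163 lower (22.8%). By median, the heat shock list stood at the high end. At the low end were ethylene genes (percentile 8.03), tubulins, expansins, lignin and lipid genes, in which 2 of 3, 6 of 10, 5 of 9, 3 of 4 and 6 of 8 were lower. The median of the 3 ethylene genes is the value of ACO20 alone. Its call was lost in the fit without the filter, where 1 of the 3 was lower.

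Markers of other tissues gave the following values, and their part in the changes above was not tested. The leaf photosynthesis list was bright on all arrays although the plants grew in darkness, with all 14 genes above the filter and a summed signal of 73317 and 80815 on the UCZ arrays, against 71896 and 76173 on the control arrays. In that list 2 genes rose, mdh6 and fdx2 (call lost without UCZ replicate 1 or control replicate 2, adjusted p up to 0.36), and 2 fell, with a median of 0.09. The larger fall was that of me3, an NADP-malic enzyme, with 739.5 and 710.4 on the UCZ arrays, against 1813 and 1808 on the control arrays (log2 −1.30, adjusted p = 1.4e-06). The small subunit of Rubisco, rbcs1, had 6819 and 7338 on the UCZ arrays, against 6360.1 and 6628 on the control arrays, and was not called. Of the 25 kernel and endosperm genes 21 lay below 110.0 on all 6 arrays. The zein genes gz50 and dzs18 had 0.493 to 15.2 on the UCZ arrays, against 1.06 to 6.28 on the control arrays. The 4 above the filter were betl4 and meg6, which rose, and gz27 and Floury1, which were not called, and the list summed to 1854 and 1962 on the UCZ arrays, against 1316 and 1460 on the control arrays. The pollen and anther list of 4 genes summed to 451.4 and 476.2 on the UCZ arrays, against 577.8 and 587.2 on the control arrays, and the root list of 2 genes to 826.8 and 855.3, against 1032 and 1017. Most of the root sum was pht1, with 768 and 792 on the UCZ arrays, against 887 and 902 on the control arrays. The other root gene, zrp4, had 58.8 and 62.9, against 145 and 115.

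The values in GA3 mesocotyls stood beside those in UCZ as follows. Both comparisons use the same control arrays, so their changes are not independent. For hsp18 the GA3 arrays had 191 and 91.2, a change of 0.54 where UCZ gave 3.50. The changes of the other heat shock genes called with UCZ were also above 0 with GA3: 0.54 for hsp18f where UCZ gave 2.25, 0.85 for hsp22 where UCZ gave 1.39, 0.36 for hsp101 where UCZ gave 1.18 and 0.67 for hsp18a where UCZ gave 0.92. For pdc3 the change was 0.71 with GA3 where UCZ gave 0.82. The expansin expB7 had 2573 and 2524 with GA3, a change of 2.04 where UCZ gave 1.01, and expB4 had 3669 and 3652, a change of −0.23 where UCZ gave −1.87. Both treated groups were thus above control for expB7. For pr5 the GA3 arrays had 277 and 339, a change of −2.56 where UCZ gave −1.69, and for sps1 they had 124 and 107, against 135 and 101 on the UCZ arrays and 357 and 362 on the control arrays. The genes wip1 and tip2a had changes of 0.14 and 0.03 with GA3, where UCZ gave −1.52 and −1.42. They were the only ones of the 15 leading falls with changes above 0 with GA3. Among the others, prp4 had −1.64 with GA3 where UCZ gave −2.25, and me3 had −1.10 where UCZ gave −1.30. For fht1 the change was −1.05 with GA3 where UCZ gave −2.50, and for gl1 it was −0.07 where UCZ gave −1.47. For phytase1, which releases phosphate from phytate, the change was 1.47 with GA3 where UCZ gave −0.52 (call lost without UCZ replicate 1 or control replicate 1, adjusted p up to 0.13). The synthase CPPS2, below the filter, had 27.1 and 32.4 on the GA3 arrays.

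Most probe sets called, 3288 of 3659, have no gene name in the annotation. The strongest of these and of the genes known by number only reached beyond most named genes. The probe set Zm.17812.1.A1_at had 326.4 and 716.7 on the UCZ arrays, against 62.5 and 94.6 on the control arrays (log2 2.43, adjusted p = 0.00011 without the filter), and Zm.18092.1.A1_at had 300.0 and 299.2, against 56.1 and 56.7 (log2 2.12, adjusted p = 0.00011 without the filter). Both reached the filter only through the UCZ arrays. The gene LOC541622 had 22.8 and 18.0 on the UCZ arrays, against 715.5 and 684.0 on the control arrays, the largest fall of the probe sets tested (log2 −4.30, SE 0.15, adjusted p = 4.9e-06 without the filter, which it reached only through the control arrays). The probe set Zm.2529.1.A1_s_at had 65.2 and 78.3 on the UCZ arrays, against 1313 and 1024 on the control arrays (log2 −3.75, SE 0.14). On the UCZ arrays both lay below the filter level. Larger changes stood among the probe sets that the filter left out, named here once their values had been seen. The terpene synthase gene tps6 had 21.2 and 20.0 on the UCZ arrays and 1.55 and 5.78 with GA3, against 1062 and 1502 on the control arrays (log2 −5.13, adjusted p = 4.9e-06 without the filter). A probe set without a gene name had 584 and 413 on the UCZ arrays, against 21.1 and 23.2 on the control arrays (log2 3.74, adjusted p = 1.9e-05 without the filter).

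A few characterized genes differed between the experiments. The gene GR2b had 235 and 286 on the UCZ arrays, against 509.6 and 291 on the control arrays, which gives changes of −1.06 and −0.03 in experiments 1 and 2 (log2 −0.55, adjusted p = 0.04, call lost without UCZ replicate 1 or control replicate 1, adjusted p up to 0.7). The kinase gene TOR, a central growth regulator, had changes of 0.10 and −0.69 and was not called, gst23 had −0.04 and 0.73 and gst24 −0.99 and −0.25 (call lost without UCZ replicate 1 or control replicate 1, adjusted p up to 0.48). AGP2 rose in both experiments but unequally, 2.82-fold in experiment 1 and 1.71-fold in experiment 2. These 5 had the largest differences between experiments among characterized genes and are a description, with no test.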

How the data were processed

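The deposited values are linear signal intensities of probe sets, made by the authors with GCOS and MAS5 per the submitters' processing notes, with versions not given in the sources used here. Of 17734 probe sets, 113 AFFX control and 66 RPTR reporter sets were left out. From the rest, log2(signal + 16) was computed and the 60% with the highest mean over 6 arrays were kept. A linear model with group and replicate number (limma 3.58.1 in R 4.3.3, eBayes with trend, 2 residual and 11.7 prior degrees of freedom) was fitted to all 6 arrays, with two-sided tests adjusted by Benjamini-Hochberg over 10533 probe sets. The design text names independent experiments, and deviations from group means correlated at 0.725 between UCZ and control arrays of the same number, 0.756 for UCZ and GA3 and 0.665 for GA3 and control, so the number was taken as a pairing.

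The annotation tied 1452 probe sets to 1 gene each and 1 to several, and left 16102 unnamed. Names were checked against RefSeq genes (Zm-B73-REFERENCE-NAM-5.0), which held 1060 of the 1108 genes. Genes were grouped into 40 lists by symbol, with 45 members of another kind removed by their names, and 30 lists had at least 3 measured genes. The genes named were the 15 most repeatable rises and falls among characterized genes, ranked by the smaller of their changes in the experiments, the extreme members of each list, all genes of gibberellin synthesis, the 5 with the largest difference between experiments, and 4 probe sets without a gene name. Other list members appear by choice once values had been seen. The comparison, the lists and these rules were chosen with earlier results of these data known.

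Poly-A control scaling used 36 probe sets and left out 6 trp sets, whose signals were at most 17.4 on every array. Alternatives were no pairing, median centring, quantile normalization, poly-A control scaling, adding 1 or 64, no filter, the brightest 40%, a prior without trend or robust, only the 4 arrays compared, and leaving out each of those arrays. For members that reached the filter only through 1 group, the adjusted p of the fit without it was given, a choice made after seeing the data. The fit was tested on simulated data. The number of arrays limits the precision. Plots used matplotlib 3.10.9 (Python 3.11.15).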

Additional observations from a re-analysis of the deposited data

Results flagged for a closer look

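Outside the main measurement, the bacterial poly-A control transcripts gave higher signals with UCZ than with control, the mean log2 difference being 0.617 in experiment 1 and 0.686 in experiment 2. All 36 of 36 probe sets were higher on the UCZ array in each experiment, with single differences from 0.22 to 1.01. The 6 trp probe sets were left out of these means.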

How the results depend on the processing

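Without the pairing by replicate number (no replicate block), 1620 probe sets were called, 678 higher and 942 lower, against 3659, 1641 and 2018 with it, and 16 of 65 called genes among the 81 named lost their call. Poly-A control scaling called 7714, with 76 higher and 7638 lower. Fits that left out 1 UCZ or control array called 2081 to 3281 probe sets, 870 to 1405 higher and 1211 to 1876 lower; 45 of the 65 genes kept their call in all 4 of these, and 20 lost it in at least 1. The other alternatives kept the 3 counts within 1.5 times, but ended calls of named genes: 8 without the filter (GR2b, cesa3, cycD2, etr2, fdx2, gst24, ids1 and lpa2), 5 each after median centring (GR2b, RR8, an1, gst24 and rps21b) and quantile normalization (GR2b, RR8, an1, fdx2 and gst24), 4 without trend (GR2b, cesa3, cycD2 and fdx2) and 2 with the robust prior (GR2b and x34.3). The fit without the filter covered 17555 probe sets and called 19.1% of them, against 34.7% of the 10533 in the main fit. Outside the 81 named genes, other list members also lost their call in it. Among them were ACO20, cesa7, pip1e, pip2e, NIR, sh1, sus1, GPC1, dhn1, cyc3, rop9 and rop2 (limma adjusted p from 0.051 to 0.10). Poly-A control scaling ended the rises of 11 named genes and reversed those given next. Under poly-A control scaling 13 named genes called in either scaling, with changes above 0 in the deposited scaling, had log2 changes below 0: etr2 −0.25, abp1 −0.20, aic1 −0.51, lox3 −0.044, cesa3 −0.22, cc7 −0.16, sod3 −0.12, cycD2 −0.28, fdx2 −0.30, ids1 −0.24, see2b −0.22, plt2 −0.49 and lpa2 −0.12. Another 6 named genes, called in neither scaling, also went from above 0 to below 0: eIF4E1 −0.37, nip1a −0.43, mha1 −0.14, pds1 −0.42, ciszog1 −0.42 and gst23 −0.22. That scaling multiplies the signals of an array by 1 factor before 16 is added, so dim probe sets move less than bright ones on the log2 scale. The change of the bright wip1 went from −1.52 to −2.17, and that of LOC541622, dim on the UCZ arrays, from −4.30 to −4.71. Doses, solvents and the number of plants per array were not given, and 2 arrays per group leave 2 residual degrees of freedom. Probe sets whose mean log2(signal + 16) over the 6 arrays lay below the level of a signal of 110.0 were not tested, also where 1 group was bright.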

Other observations

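Proteases and phytate genes made smaller moves. Of 7 protease genes the plastid or mitochondrial type protease lon1, the vacuolar processing enzyme see2a and the cysteine protease mir2 fell and see2b rose, with log2 changes of −0.58, −0.53, −0.36 and 0.43. The very bright cysteine protease genes ccp1 and ccp2 were not called. In phytate metabolism INO1, an inositol phosphate synthase, rose by 0.44 and lpa2, an inositol phosphate kinase, by 0.46, while phytase1, which degrades phytate, fell by 0.52. The calls of lon1, see2b, phytase1 and lpa2 were each lost in at least 1 fit that left out an array, with adjusted p up to 0.062, 0.12, 0.13 and 0.27.

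Of the 93 characterized genes with several probe sets, 22 had probe sets that differed in sign. The case of pgr5 was picked out after its values were seen. Its dimmer probe set had 56.2 and 64.5 on the UCZ arrays, against 679 and 636 on the control arrays (log2 −3.14, limma adjusted p = 9.8e-09), while the brighter probe set of pgr5 had 784 and 643, against 816 and 638 (log2 −0.02). Which of the 2 reads the gene was not tested.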
